A study of Mus musculus with 2 samples.

Results

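The cells described here are hormone-responsive luminal cells of the mouse mammary gland that carried at least 5 unique molecular identifiers (UMIs, each standing for 1 captured transcript molecule) of Aoc1. They numbered 641 of the 15632 cells kept from both libraries, 581 of 6297 in the control library (Ctrl) and 60 of 9335 in the library from mice given clodronate liposomes (CL). A cell counted as hormone luminal when Krt8 and Krt18 together gave at least 10 UMIs and more than Krt5, Krt14 and Krt17, when it had no UMI of Ptprc, and when Prlr, Areg, Cited1 and Ptn together gave more than 2 times the UMIs of Ltf, Wfdc18, Csn3, Aldh1a3 and Plet1. By that rule 2110 cells of Ctrl and 2634 of CL were hormone luminal, and the Aoc1 minimum then chose among them. The cells were thus chosen by their measured UMIs of Aoc1 and of the other genes of the rule, whose levels are given as a description.

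Adult wild-type female mice were used, aged 9 to 10 weeks by the sample labels and 8 to 10 weeks by the protocol. CL mice received clodronate enclosed in liposomes by intraperitoneal injection, a reagent that kills macrophages once they ingest it, and Ctrl mice were the controls, with no genetic change named in either group. Live cells lacking CD31 and TER119 were sorted from digested glands, so endothelial and red cells were gated out. Each group is 1 library, how many mice went into each is not given in the sources used here, and neither is the stage of the estrous cycle. The animals, the library and the treatment cannot be told apart, no test between groups was possible, and every interval below is an exact 95% interval for counting error only.

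Luminal cells of the mammary duct fall into a secretory lineage, which can make milk, and a hormone-sensing lineage, which carries the receptors for estrogen, progesterone and prolactin and passes their signals on to neighbouring cells through ligands such as amphiregulin (Areg). Aoc1 encodes diamine oxidase, a secreted copper enzyme that breaks down putrescine and histamine. Gpx3 encodes a secreted glutathione peroxidase, Slc5a5 the sodium-iodide symporter that concentrates iodide, and Ido1 the enzyme that opens the tryptophan ring on the way to kynurenine.

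Aoc1 lies on chromosome 6 between positions 48872896 and 48909188 on the plus strand (GRCm38, GENCODE M21), as a protein-coding gene. RefSeq on GRCm38.p6 gives 2 start sites whose upstream 250 bases are shown first, because Aoc1 sets these cells apart. The first window, chr6:48895005-48895254, holds the core of a progesterone receptor element (ACANNNTGT), and the second, chr6:48904736-48904985, holds a GATA motif (AGATAA). The windows of Prlr at chr15:10223656-10223905 and of Lcmt1 at chr7:123407567-123407816 are shown because they alone among the 25 windows of 17 genes hold the STAT motif (TTCNNNGAA), the element bound by the factor that acts below the prolactin receptor. That of Prlr also holds a forkhead motif (TGTTTAC). Capitals mark the motif matches, found on both strands, and all 4 windows are written 5′ to 3′ on the plus strand, which is the strand of each gene.
Aoc1, first start: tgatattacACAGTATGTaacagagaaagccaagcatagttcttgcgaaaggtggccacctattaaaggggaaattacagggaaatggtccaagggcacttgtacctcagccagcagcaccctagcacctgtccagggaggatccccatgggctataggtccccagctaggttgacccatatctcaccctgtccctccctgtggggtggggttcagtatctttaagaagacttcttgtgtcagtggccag
Aoc1, second start: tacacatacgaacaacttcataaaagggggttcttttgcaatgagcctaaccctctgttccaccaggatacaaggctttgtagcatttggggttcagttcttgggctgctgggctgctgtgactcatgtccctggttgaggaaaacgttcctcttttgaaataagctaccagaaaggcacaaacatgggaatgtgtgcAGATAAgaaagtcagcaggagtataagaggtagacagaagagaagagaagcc
Prlr: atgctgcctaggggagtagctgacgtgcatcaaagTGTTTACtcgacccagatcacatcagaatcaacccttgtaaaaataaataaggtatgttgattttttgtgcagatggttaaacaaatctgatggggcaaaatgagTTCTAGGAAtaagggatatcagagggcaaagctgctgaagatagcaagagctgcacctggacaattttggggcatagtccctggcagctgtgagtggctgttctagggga
Lcmt1: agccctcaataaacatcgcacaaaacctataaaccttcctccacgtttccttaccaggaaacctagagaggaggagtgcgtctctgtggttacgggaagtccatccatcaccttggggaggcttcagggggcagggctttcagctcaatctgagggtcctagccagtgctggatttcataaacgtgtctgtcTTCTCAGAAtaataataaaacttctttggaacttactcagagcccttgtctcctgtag

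Among all 32851 mouse promoter windows in the same table, the STAT motif was present in 7.02%, the progesterone receptor core in 5.84%, the GATA motif in 9.99% and the forkhead motif in 3.17%. The estrogen receptor element (GGTCA, 3 bases, TGACC, in 0.0639% of all windows) and the interferon regulatory factor motif (GAAA, 2 bases, GAAA, in 2.98%) were in none of the 25. A match is a description of letters, and binding was not measured. The genes looked up were Aoc1, its given companions (Prlr, Areg, Gpx3, Slc5a5 and Ido1) and the 15 genes named below as higher in Ctrl, 20 in all, of which Ido1, Dmbt1 and Alox15 had no entry.

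Aoc1 cells made up 27.5% of hormone luminal cells in Ctrl (interval 25.6 to 29.5%) and 2.28% in CL (1.74 to 2.92%). On the log2 scale the share was -3.60 in CL relative to Ctrl (-4.0 to -3.21), or 12.1-fold smaller. The same share of Aoc1 cells among hormone luminal cells was -4.25 at a minimum of 10 Aoc1 UMIs, -3.15 at 3 and -2.59 for thinned cells with at least 1. Hormone luminal cells as a whole held 33.5% of cells in Ctrl and 28.2% in CL, 1.19-fold fewer in CL. In Ctrl, 1047 hormone luminal cells had no Aoc1 UMI, 367 had 1 to 2, 115 had 3 to 4, 153 had 5 to 9 and 428 had 10 or more. In CL these numbers were 2330, 206, 38, 32 and 28. Just outside the minimum stood 40 Ctrl and 9 CL cells with 4 UMIs, and just inside it 47 and 12 cells with 5 UMIs.

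**Figure D1:**
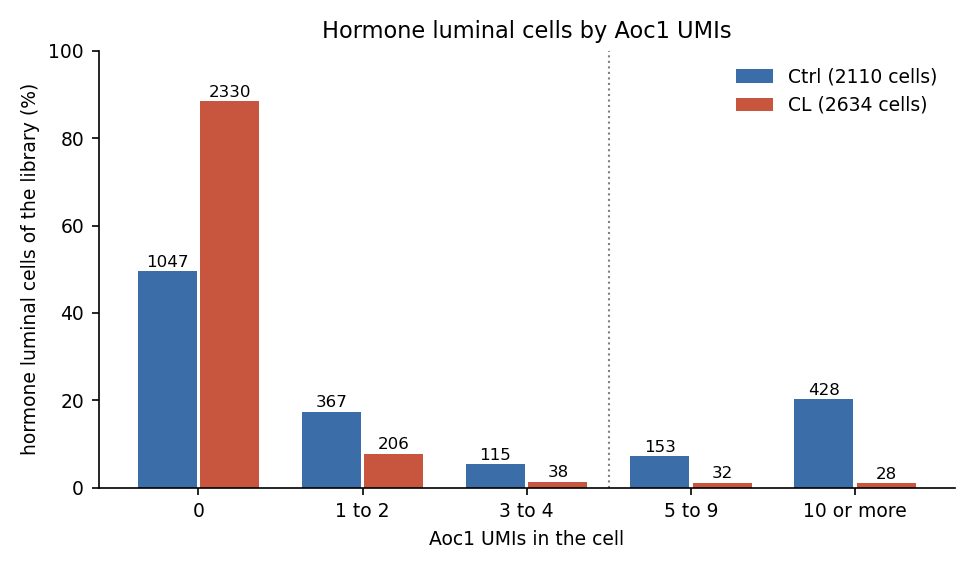
Percent of hormone luminal cells of each library (vertical axis) by the number of Aoc1 UMIs in the cell (horizontal axis), with the number of cells above each bar and a dotted line at the minimum that chose the Aoc1 cells. In Ctrl 428 cells lie in the class of 10 or more UMIs and in CL 28.

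The Aoc1 cells of Ctrl had between 5 and 160 Aoc1 UMIs with a median of 17, and those of CL between 5 and 40 with a median of 9. Their depth was alike, with a median of 21298 UMIs per cell in Ctrl and 20902 in CL, while the other hormone luminal cells had 19830 and 17046. Pooled over cells and scaled to counts per 1e6 UMIs (CPM), Aoc1 stood at 1125 CPM (1107 to 1144) in the Aoc1 cells of Ctrl and 466 CPM (431 to 502) in those of CL. The other hormone luminal cells had 27.3 and 7.96 CPM. Hormone luminal cells held 84.2% of all Aoc1 UMIs in Ctrl cells and 74.5% in CL cells.

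Aoc1 in cell types outside the lineage gives the background. Droplets of 100 to 300 UMIs, taken as empty, held 256 CPM in Ctrl and 12.3 CPM in CL. With each cell thinned to 7228 UMIs and shallower cells left out, which kept 1929 hormone luminal, 2169 secretory luminal and 250 basal cells in Ctrl and 2370, 2939 and 166 in CL, at least 1 Aoc1 UMI was found in 40.9% of hormone luminal cells of Ctrl against 8.71% of secretory luminal and 5.60% of basal cells. In CL these shares were 6.79%, 0.612% and 0 of 166 basal cells, with an upper bound of 2.20%. Unthinned, 50.4% of hormone luminal and 12.2% of secretory luminal cells had an Aoc1 UMI in Ctrl, at median depths of 20193 and 9981 UMIs, and 11.5% and 1.23% in CL, at 17151 and 9486. At the minimum of 5 UMIs the share in secretory luminal cells was 0.796% in Ctrl and 0.0983% in CL.

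Of the given markers, Prlr and Areg were part of the rule, and Gpx3, Slc5a5 and Ido1 were not. The markers were given with earlier results of these data known. Their levels thus describe the label and do not check it. In Ctrl, at the depth of each cell, at least 1 UMI of Gpx3 was present in 99.1% of Aoc1 cells, of Slc5a5 in 97.4% and of Ido1 in 82.4%, against 21.0%, 7.25% and 14.1% of the shallower Ptprc-positive cells and 31.7%, 13.6% and 16.9% of secretory luminal cells. The other hormone luminal cells of Ctrl had 92.3%, 86.3% and 68.1%. In CL the shares were 83.3%, 81.7% and 70.0%, against 5.53%, 1.84% and 6.07% of Ptprc-positive cells, 10.5%, 6.88% and 10.5% of secretory luminal cells and 78.1%, 59.5% and 52.4% of the other hormone luminal cells. The median depth of Ptprc-positive cells was 5092 UMIs in Ctrl and 4872 in CL. With cells thinned to 7228 UMIs, Gpx3, Slc5a5 and Ido1 were found in 95.1%, 86.6% and 71.4% of Aoc1 cells of Ctrl against 78.9%, 67.7% and 54.3% of the other hormone luminal cells. In CL the thinned shares were 63.3% (49.9 to 75.4%), 58.3% (44.9 to 70.9%) and 51.7% (38.4 to 64.8%) against 62.0%, 39.2% and 41.3%, so that at matched depth the interval for Slc5a5 lay above the share in the other cells and those for Gpx3 and Ido1 included it. Unthinned, Gpx3, Slc5a5 and Ido1 were all 3 detected in 79.5% of Aoc1 cells of Ctrl against 58.1% of the other hormone luminal cells, and in 30 of 60 Aoc1 cells against 28.8% of the others in CL. Other cell types were read from their summed markers. Macrophage markers (8 genes) gave 12.9 CPM in Ctrl and 21.4 CPM in CL Aoc1 cells, with 2 genes at 0 in each, T and NK cell markers (8 genes) 3.27 and 5.52 CPM, and neutrophil markers (4 genes) 0.609 and 3.45 CPM. B cell markers (5 genes) gave 0.228 CPM in Ctrl and 0 in CL. Endothelial markers (7 genes) gave 12.3 and 17.9 CPM, pericyte markers (6 genes) 33.6 and 33.1 CPM, nearly all of it Notch3, and basal markers (10 genes) 103 and 46.2 CPM. The rule capped 3 of the basal markers, Krt5, Krt14 and Krt17, and the other 7 summed to 51.7 and 26.2 CPM, against 98.8 and 77.3 CPM in the other hormone luminal cells. Secretory luminal markers (10 genes, 5 of them part of the rule) gave 689 CPM in Ctrl and 702 CPM in CL, against 596 and 784 CPM in the other hormone luminal cells.

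Fibroblast markers (7 genes) summed to 174 CPM in the Aoc1 cells of Ctrl, 161 of it Dcn, and to 1163 CPM in those of CL, where 56.5% came from 1 cell. That cell, with 33946 UMIs of which 10 were Aoc1, held 443 UMIs of Col1a1, Col1a2 and Col3a1, while the cell next to it in that count held 1. The other hormone luminal cells had 222 and 119 CPM of these markers. Without collagen-bearing cells the sum was 518 CPM in the 59 remaining Aoc1 cells of CL against 93.7 CPM in the others, and 172 against 119 CPM in Ctrl. Of those remaining UMIs in CL 36.7% lay in 1 further cell, all 269 of them Dcn, without which the sum was 332 CPM, and 10 of the 59 cells held at least 10. Dcn was detected in 28 of the 60 CL Aoc1 cells (46.7%), 25 of them without any collagen UMI, against 19.7% of the others, and in 28.4% against 24.6% in Ctrl. At least 10 UMIs of fibroblast markers were present in 11 of the 60 cells (18.3%) against 3.73% of the others. The part of these transcripts in the other results for CL was measured only by leaving out the collagen-bearing cells.

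Gpx3 was the marker with the widest gap in Ctrl. Its level was 2000.4 CPM in Aoc1 cells against 867 CPM in the other hormone luminal cells, a log2 ratio of 1.21 (1.18 to 1.23) or 2.31-fold. Single Ctrl Aoc1 cells ranged from 0 to 9977 CPM of Gpx3 with a median of 1619 CPM and quartiles of 721 and 3018 CPM, and the others from 0 to 14395 CPM with a median of 349 CPM and quartiles of 128 and 1355 CPM. The ranges of single cells thus overlapped, although the lower quartile of the Aoc1 cells lay above the median of the rest. In CL the level was 353 against 280 CPM, a log2 ratio of 0.33 (0.20 to 0.46), and the medians of single cells were 190 and 139 CPM.

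Ido1 stood at 905 against 494 CPM in Ctrl, a log2 ratio of 0.87 (0.84 to 0.91), and at 647 against 258 CPM in CL, a log2 ratio of 1.33 (1.23 to 1.42). Single Aoc1 cells spread widely, from 0 to 8372 CPM in Ctrl with a median of 355 CPM and from 0 to 5259 CPM in CL with a median of 180 CPM. Slc5a5 stood at 427 against 249 CPM in Ctrl and at 130 against 86.0 CPM in CL, log2 ratios of 0.78 (0.73 to 0.83) and 0.60 (0.38 to 0.81). Prlr, a gene of the rule, differed little, at 3369 against 3072 CPM in Ctrl and 2810 against 2572 CPM in CL. Areg, also of the rule, had a log2 ratio of 0.08 in Ctrl and -0.40 in CL.

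Levels were graded over the Aoc1 UMI classes in Ctrl. From cells with no Aoc1 UMI through 1 to 2, 3 to 4 and 5 to 9 to those with 10 or more, Gpx3 went from 695 through 1131, 1562 and 1694 to 2092 CPM. Slc5a5 went over the same classes from 223 through 295, 333 and 404 to 434 CPM, and Ido1 from 452 through 543, 720 and 960 to 888 CPM, out of order in the last step. Ly6a (Sca-1), a surface protein carried by many hormone-sensing cells, went the other way, from 2050 through 1691, 1493 and 1324 to 1024 CPM. The classes next to the minimum, 3 to 4 and 5 to 9 UMIs, had overlapping intervals for Pgr, the progesterone receptor (226 and 224 CPM), and intervals apart for Gpx3, Slc5a5 and Ido1. Deeper cells reach a given UMI count more easily, and the median depth was 19870, 19938, 18423, 19680 and 21995 UMIs in the 5 classes of Ctrl. In CL, Gpx3 showed no such order (278, 269, 407, 287 and 419 CPM). Slc5a5 (82.7, 108, 130, 137 and 124 CPM) and Ido1 (236, 416, 485, 476 and 819 CPM) were each higher in the last class of CL than in the first. Fgb, which encodes a fibrinogen chain, went from 1097 through 659, 480 and 170 to 139 CPM in CL. In Ctrl it went from 565 through 444, 309 and 267 to 222 CPM. Upk3a in CL was out of order in the last step (816, 300, 186, 46.6 and 306 CPM).

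**Figure D2:**
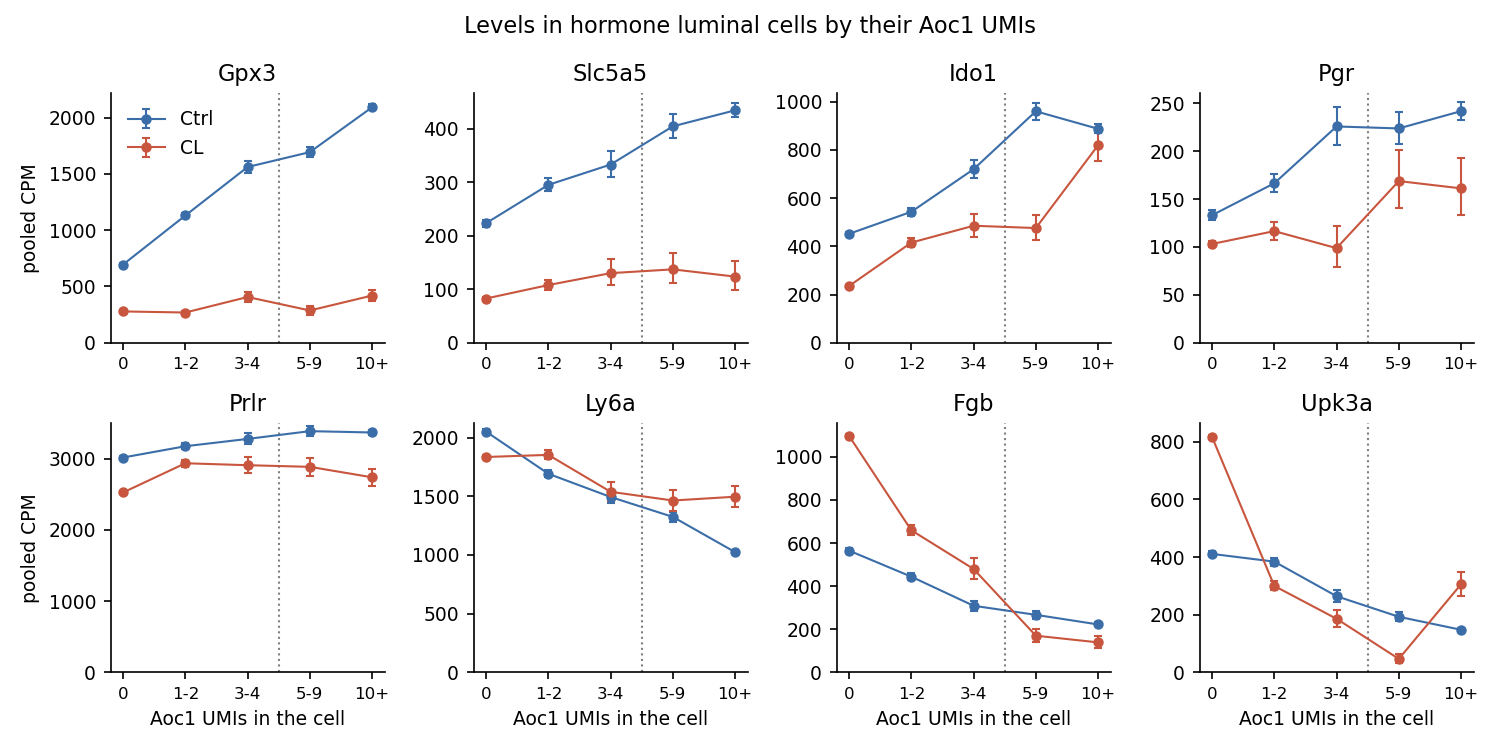
Pooled CPM (vertical axes, linear from 0) of 8 genes in hormone luminal cells with 0, 1 to 2, 3 to 4, 5 to 9 and 10 or more Aoc1 UMIs (horizontal axes) in Ctrl and CL, with exact 95% Poisson bars and a dotted line at the minimum. In Ctrl Gpx3 goes from 695 to 2092 CPM over the classes and Ly6a from 2050 to 1024 CPM.

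Over the other genes the Aoc1 cells of Ctrl were close to their neighbours in the lineage. Of 5700 genes with at least 20 CPM in the higher class and 20 UMIs in all, 21 were at least 2-fold higher (0.368% of those tested) and 25 at least 2-fold lower (0.439%), 0.807% in all, with a median log2 ratio of -0.01. Of the 21, 15 could also be compared in CL, a library that had no part in naming them, and there 12 had the same sign (against 56.8% of the 5496 genes tested in both being above 0), 7 were again 2-fold higher (46.7%, against 0.491% of those genes) and 1, Defb1, was 2-fold lower. The filter asks for 20 CPM in the higher class only. Elf5, Col6a3, Chst8, Plb1 and Alox15 passed it in CL through the Aoc1 cells alone. In the others they stood at 6.99, 7.05, 13.9, 8.27 and 14.4 CPM. Mvd, at 15.2 against 16.6 CPM in CL, fell below it. Among the genes named below, Elf5, Gdf15, Alox15, Olfm4, Plb1, Nuak1 and Mvd passed it in Ctrl through the Aoc1 cells alone. In the others of Ctrl these had 8.15 to 18.8 CPM. The counts thus draw on genes that the filter favoured, and no agreement between the libraries is read from them. Of the 25, 17 could be compared, and 8 had the same sign (47.1%, against 43.2% of all), 4 were 2-fold lower (23.5%, against 0.455% of all) and 4 were 2-fold higher. The share with the same sign was thus near that of all genes. Gene names follow a fixed rule, the 15 highest and 8 lowest ratios in Ctrl.

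Elf5, a transcription factor of the secretory luminal lineage induced by prolactin, led the list. It stood at 30.7 against 8.15 CPM in Ctrl, a log2 ratio of 1.91 (1.68 to 2.14), with a UMI in 170 of 581 Aoc1 cells, and at 24.2 against 6.99 CPM in CL, a log2 ratio of 1.79 (1.24 to 2.29), with a UMI in 18 of 60. The ratio was above 3-fold in both libraries, but Elf5 passed the filter in each through the Aoc1 cells alone. A high ratio was thus favoured, and no agreement is read from it. The value in CL rests on 35 UMIs and was 1.42 among cells with fewer than 5 UMIs of Fgb and Upk3a. Col6a3, a chain of collagen VI best known from fibroblasts, followed at 86.7 against 23.2 CPM in Ctrl and 31.7 against 7.05 CPM in CL, log2 ratios of 1.90 (1.77 to 2.04) and 2.17 (1.69 to 2.62). Its UMIs were spread over 334 Ctrl cells with 1.93% in the richest, and over 17 CL cells with 23.9% in the richest, and the ratio in CL was between 1.91 and 2.47 under every alternative, including the one without collagen-bearing cells. The ratios of Col1a1, Col1a2 and Col3a1, below, changed when those cells were left out. Leaving them out took 1 Aoc1 cell from CL, and fibroblast markers still summed to 518 against 93.7 CPM there. Col6a3 also passed the filter in CL through the Aoc1 cells alone. The part of fibroblast transcripts in its ratio was not tested.

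Further genes had ratios above 0 in both libraries. Of these, Chst8, Plb1 and Alox15 passed the filter in CL through the Aoc1 cells alone, which favours a high ratio there. Mal, a membrane raft protein of apical transport, had log2 ratios of 1.35 (1.22 to 1.48) in Ctrl and 1.73 (1.45 to 2.00) in CL. Tmem86a, a lysoplasmalogenase, stood at 396 against 155 CPM in Ctrl (1.36) and 138 against 66.5 CPM in CL (1.05). Chst8, a sulfotransferase that acts on sugar chains of hormones, had 1.25 and 1.09, Plb1, a phospholipase, 1.16 and 1.70 with 24.8% and 38.5% of its UMIs in 1 cell, and Lcmt1, the methyltransferase of protein phosphatase 2A, 1.20 and 0.92. Plb1 in CL was 0.14 at a minimum of 10 Aoc1 UMIs. Alox15, a lipoxygenase, had 1.20 and 0.91, but 0.97 and -0.054 among cells with fewer than 5 UMIs of Fgb and Upk3a, where Tmem86a and Chst8 in CL were 0.58 and 0.76. Olfm4, Ptpn5 and Nuak1, with ratios of 1.19, 1.16 and 1.07 in Ctrl, were too low in CL to be counted, where they read 1.33, 0.93 and 0.66.

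For 4 named genes the libraries parted or 1 cell weighed heavily. Dmbt1, a secreted mucosal scavenger protein, stood at 138 against 52.0 CPM in Ctrl over 113 Aoc1 cells (log2 1.41) but at 39.3 against 42.9 CPM in CL, where 91.2% of its UMIs lay in 1 cell. At a minimum of 10 Aoc1 UMIs its ratio was 0.88 in Ctrl and 0.88 in CL. Mvd, an enzyme of sterol synthesis, had 1.07 in Ctrl and -0.13 (-0.81 to 0.48) in CL, below the filter. Gdf15, a stress cytokine, owed 79.4% of its UMIs in Ctrl Aoc1 cells to 1 cell, and its ratio of 1.29 turned to -1.71 with a minimum of 10 Aoc1 UMIs. Defb1, a beta-defensin, stood at 256 against 125 CPM in Ctrl over 213 cells, a log2 ratio of 1.04 (0.97 to 1.11), and at 4.14 against 38 CPM in CL, with UMIs in 2 of the 60 cells and a log2 ratio of -3.20 (-4.65 to -2.07), or -1.17 at a minimum of 3 Aoc1 UMIs.

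The lowest ratios in Ctrl belonged to division genes and to fibrillar collagens. Ube2c and Cenpa, both used in mitosis, had log2 ratios of -3.12 and -2.02, and Stmn1, a microtubule regulator high in dividing cells, -1.85 at 30.4 against 109 CPM, with 45.9% of its UMIs in 1 Aoc1 cell. Without cells of at least 10 UMIs of division genes the ratios were -0.65, -0.12 and -0.43, none past 2-fold. In CL Ube2c and Cenpa, both under the filter there, read -0.09 and 0.32. Stmn1 had 0.68 in CL, with 45.4% of its UMIs in 1 cell, and -1.04 at a minimum of 10 Aoc1 UMIs. Il33, an alarmin cytokine, had -1.82 in Ctrl and read -0.13 (-0.75 to 0.43) in CL, where it was under the filter. Itih2, an inhibitor chain that binds hyaluronan, was low in both libraries, at 16.4 against 52.4 CPM in Ctrl and 12.4 against 57.1 CPM in CL, log2 ratios of -1.68 (-1.89 to -1.47) and -2.20 (-2.96 to -1.54), which were -1.09 and -0.87 among cells low in Fgb and Upk3a. Col1a1, Col1a2 and Col3a1 had -2.31, -2.91 and -3.06 in Ctrl and 3.97, 4.36 and 4.75 in CL. Without cells of at least 10 collagen UMIs (1 Aoc1 cell and 9 others in Ctrl, 1 and 6 in CL) these ratios became 0.085, -0.19 and -0.72 in Ctrl and -0.45, -0.55 and -0.74 in CL.

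**Figure D3:**
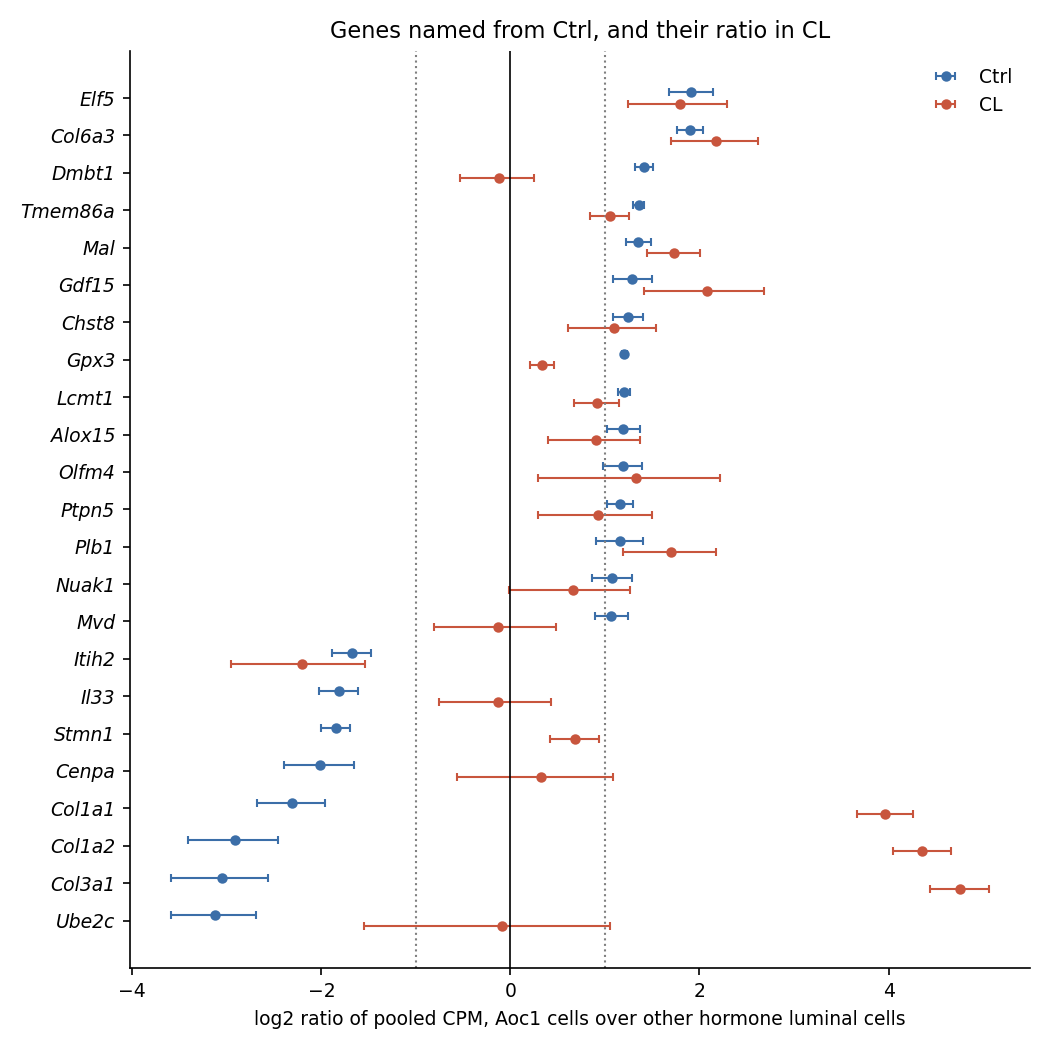
Log2 ratio of pooled CPM in Aoc1 cells over other hormone luminal cells (horizontal axis) for the 15 genes with the highest and the 8 with the lowest ratio in Ctrl (vertical axis), in Ctrl and in CL, with exact 95% counting intervals and dotted lines at 2-fold. Elf5, Col6a3, Mal and Itih2 lie past 2-fold on the same side in both libraries, and Col1a1, Col1a2 and Col3a1 lie on opposite sides.

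In CL, 53 of 5868 genes were at least 2-fold higher in the Aoc1 cells (0.903%) and 28 at least 2-fold lower (0.477%), 1.38% in all, with a median log2 ratio of 0.05. Of the 53, 27 had more than 50% of their UMIs in 1 Aoc1 cell, and for 22 of them it was the cell with 443 collagen UMIs. Without collagen-bearing cells 30 genes were 2-fold higher and 25 lower. In Ctrl 1 of the 21 and 1 of the 25 had most of their UMIs in 1 cell.

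Fgb and Upk3a were lower in the Aoc1 cells of both libraries. Fgb stood at 232 against 516 CPM in Ctrl and at 155 against 1042 CPM in CL, log2 ratios of -1.15 (-1.21 to -1.09) and -2.75 (-2.95 to -2.56). Upk3a, which encodes a uroplakin of the apical membrane, stood at 158 against 394 CPM and at 175 against 753 CPM, log2 ratios of -1.32 and -2.10, with 31.8% and 40.2% of its UMIs in 1 Aoc1 cell. At least 5 UMIs of Fgb and Upk3a together were present in 25.5% of Aoc1 cells and 40.4% of the others in Ctrl, and in 18.3% (9.52 to 30.4%) and 57.2% in CL. Among cells with fewer than 5 such UMIs, an alternative added after the data were seen, the log2 ratios of Gpx3, Slc5a5 and Ido1 were 1.00, 0.51 and 0.58 in Ctrl. In CL they were 0.11, 0.25 and 0.75, against 0.33, 0.60 and 1.33 in all cells, and the intervals of Gpx3 and Slc5a5 reached 0. Ly6a stood at 1093 against 1919.6 CPM in Ctrl and 1479.5 against 1831 CPM in CL.

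The fixed lists were then read one by one, each against the medians of -0.01 and 0.05 over all genes tested in Ctrl and CL. Of the prolactin signalling genes, 8 were tested in each library and their median log2 ratio was 0.32 in Ctrl and 0.27 in CL. Above 0 were 7 of the 8 in Ctrl, with Socs3 at -0.03, and 8 of 8 in CL, against 46.6% and 58.5% of all genes tested, and 1 gene, Elf5, was 2-fold higher in each library. The list holds Prlr, a gene of the rule, and without it the medians were 0.32 and 0.36, with 6 of 7 and 7 of 7 above 0. Elf5 in both libraries and Ghr in CL passed the filter only through the Aoc1 cells. Under the filter in CL were Stat5b at -0.08, Socs1 at -0.29, Cish at 0.44 and Irs1 at 1.20. In Ctrl, Socs1, Cish, Irs1 and Ghr were under it at -0.31, -0.20, 0.89 and -0.09. The counts above 0 depend on this filter, and no shift of the list is read from them. Stat5a, the transcription factor activated by the prolactin receptor, stood at 130 against 87.3 CPM in Ctrl and 84.2 against 56.8 CPM in CL, log2 ratios of 0.58 and 0.57. Ptprf, a receptor phosphatase, had 0.47 and 0.36, and Socs2, a feedback inhibitor, 0.32 and 0.04.

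Of the estrogen and progesterone response genes, 13 were tested in Ctrl and 11 in CL, Areg and Cited1 of the rule among them, and none was 2-fold changed in either. With 0.807% and 1.38% of all genes past 2-fold in the libraries, nothing is read from the absence of such genes in this or any other short list. Pgr stood at 238 against 148 CPM in Ctrl and 165 against 104 CPM in CL, log2 ratios of 0.68 (0.62 to 0.75) and 0.66 (0.47 to 0.85). Esr1, the estrogen receptor, had -0.18 and 0.05, and Foxa1, its pioneer factor, -0.22 and -0.26. Greb1, an estrogen target, had 0.92 in Ctrl at 25.2 against 13.3 CPM and was under the filter in CL. Cxcl15, a chemokine, had 0.84 and 0.25, and Cited1, a gene of the rule, -0.77 and -0.89.

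Of the polyamine and histamine genes 11 were tested in each library, with medians of 0.01 in Ctrl and 0.04 in CL (-0.07 without collagen-bearing cells) and none 2-fold changed. Atp13a3, a polyamine transporter, had the highest ratio in both, at 435 against 326 CPM in Ctrl and 222 against 165 CPM in CL, each a log2 ratio of 0.42. Sat1, which acetylates spermidine and spermine for export, stood at 113 against 181 CPM in Ctrl (-0.68) and 173 against 169 CPM in CL (0.04). Sms, spermine synthase, had -0.40 and -0.11, and Maoa, a monoamine oxidase, -0.44 and -0.25.

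Of the ion transport genes 8 were tested in each library, with medians of 0.32 in Ctrl and 0.31 in CL, 6 and 7 of them above 0, against 46.6% and 58.5% of all genes, and none 2-fold changed. Slc5a5 had the highest ratio in Ctrl. Clca3a2, a calcium-activated chloride channel regulator, stood at 306 against 207 CPM in Ctrl and 601 against 377 CPM in CL, log2 ratios of 0.57 and 0.67. The water channels Aqp5 and Aqp3 had 0.36 and 0.39 in Ctrl but 0.00 and -0.57 in CL. Aqp3 in CL was 0.054 at a minimum of 3 Aoc1 UMIs and -0.91 among cells low in Fgb and Upk3a. Of the glutathione and selenoprotein genes 19 were tested in each library with medians of -0.21 in Ctrl and 0.00 in CL. Above 0 were 4 of them in Ctrl and 9 in CL, against 46.6% and 58.5% of all genes, and Gpx3 alone was 2-fold higher in Ctrl. Gsta4, a glutathione transferase for lipid aldehydes, was 2-fold lower there at 35.5 against 104 CPM (-1.56, or -0.72 at a minimum of 3 Aoc1 UMIs), and Mgst1 had -0.97. In CL no gene of this list was 2-fold changed. Of the tryptophan and kynurenine genes 5 were tested in each library with medians of 0.14 and 0.07. Ido1 alone passed 2-fold, in CL, while Ahr, the receptor that binds kynurenine, had -0.17 and 0.15.

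Of the interferon response genes 10 were tested in each library, and 4 were above 0 in Ctrl with a median of -0.01 and 10 in CL with a median of 0.47, against 46.6% and 58.5% of all genes above 0. Without collagen-bearing cells the medians were 0.00 in Ctrl and 0.28 in CL, with 5 and 9 genes above 0. Iigp1, an immunity-related GTPase, stood at 73.0 against 54.1 CPM in Ctrl (0.43) and 113 against 62.0 CPM in CL (0.87), where 35.4% of its UMIs lay in 1 cell and the ratio without collagen-bearing cells was 0.28 (-0.01 to 0.56). Bst2, tetherin, had 0.28 and 0.58, or 0.28 and 0.56 without those cells. Cxcl10, a chemokine for T cells, was the 1 gene past 2-fold, in CL, at 93.2 against 26.2 CPM with 69.6% of its UMIs in 1 cell and a ratio of 0.15 without collagen-bearing cells. The difference between the libraries was not tested. Of the cell division genes 4 were tested in Ctrl with a median of -1.52, and Ube2c, Top2a and Tyms were 2-fold lower (-0.65, 0.18 and -0.52 without cells of at least 10 such UMIs). In CL 2 were tested, Tyms at 0.39 and Pcna at 0.34, with a median of 0.36. At a minimum of 10 Aoc1 UMIs these 2 were -0.77 and -0.03, so the sign in CL turned. At least 3 UMIs of division genes were present in 175 of 581 Aoc1 cells and 459 of the 1529 others in Ctrl. In CL the shares were 48.3% (35.2 to 61.6%) and 26.5%. Neither library was thinned for this, and deeper cells reach 3 UMIs more easily. The median depth of Aoc1 cells and others was 21298 and 19830 UMIs in Ctrl and 20902 and 17046 in CL.

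Of the remaining lists, innate and antimicrobial genes had medians of -0.02 over 8 genes in Ctrl and -0.17 over 7 in CL, with Defb1 higher and Il33 lower in Ctrl and Defb1 and the neutrophil chemokine Cxcl2 lower in CL (-1.37, or 0.040 at a minimum of 3 Aoc1 UMIs). That list holds Ltf, a gene of the rule, and without it the medians were -0.02 over 7 genes and -0.40 over 6. WNT, RANKL and paracrine genes (7 tested in each) had medians of 0.08 and 0.13, or 0.19 and 0.19 over 6 without Ptn, a gene of the rule. Of these Csf3, which drives granulocyte production, had 0.71 in Ctrl and -1.74 in CL, the latter -0.62 at a minimum of 3 Aoc1 UMIs. Epidermal growth factor family genes had medians of -0.13 over 5 genes and -0.40 over 3, the latter the value of Areg, a gene of the rule. Without Areg the medians were -0.14 over 4 genes and -0.23 over 2. Milk and secretory genes had 2 tested members, Csn3 and Plin2, at 0.25 and -0.29 in Ctrl and 0.33 and -0.17 in CL, of which Csn3 is a gene that the rule limited. Surface and keratin genes of the lineage (16 tested, with Krt8 and Krt18 of the rule among them) had medians of -0.02 and -0.11, or -0.04 and -0.11 without those 2, with Fgb and Upk3a the 2 past 2-fold in each library. Genes induced by tissue dissociation (12 tested) had medians of -0.20 and -0.33, with Hspa1b at -0.45 and -0.50 and none past 2-fold. Above 0 were 1 of the 12 in Ctrl and 2 in CL, against 46.6% and 58.5% of all genes.

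**Figure D4:**
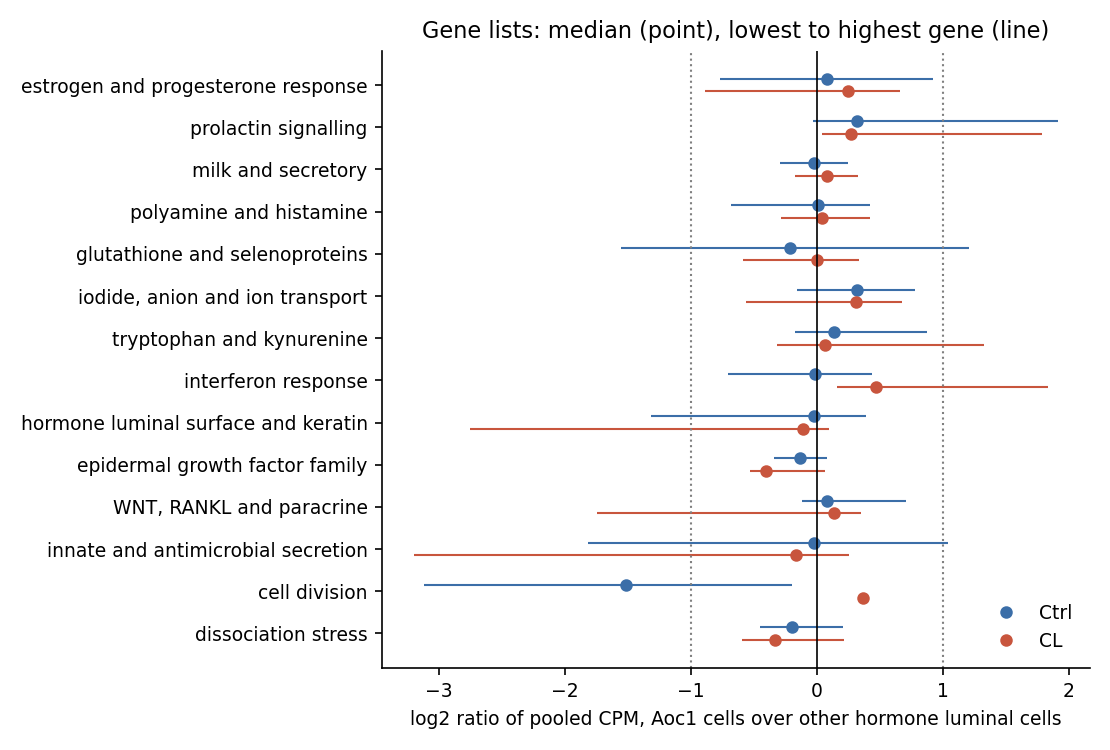
Median log2 ratio (points) and range from lowest to highest gene (lines) of Aoc1 cells over other hormone luminal cells (horizontal axis) for the tested genes of 14 lists (vertical axis) in Ctrl and CL, with dotted lines at 2-fold. Prolactin signalling has medians of 0.32 and 0.27, interferon response -0.01 and 0.47, and cell division -1.52 in Ctrl.

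Aoc1 cells were also more often next to each other when Aoc1 was left out. Among the 15 nearest hormone luminal cells of the same library, over 2000 variable genes and 30 principal components, 57.7% of the neighbours of Aoc1 cells were Aoc1 cells in Ctrl against 27.5% of all hormone luminal cells, 2.09 times as many, and against 20.5% of the neighbours of other cells. In CL 7.33% were, against 2.28% of all, 3.22 times as many. In Ctrl 385 of 581 Aoc1 cells had a majority of Aoc1 neighbours and 11 had none, and in CL 0 of 60 had a majority and 26 had none. With Aoc1 cells at 2.28% of hormone luminal cells in CL, a majority was hardly within reach there, so nothing is read from the 0 of 60.

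Within the Aoc1 cells, CL and Ctrl were set side by side. Of 5925 genes tested, 62 were at least 2-fold higher in CL (1.05%) and 79 at least 2-fold lower (1.33%), a total of 2.38%. In the other hormone luminal cells the same shares were 0.246%, 0.527% and 0.773% of 5689 genes. The class in CL has 60 cells, and for 25 of the 62 higher genes more than 50% of the UMIs lay in 1 of them, 19 in the cell with 443 collagen UMIs. The share was 1 of 79 among the lower genes.

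Gpx3 and Slc5a5 were past 2-fold lower in CL among cells that passed the same minimum. Gpx3 stood at 353 CPM in CL and 2000.4 CPM in Ctrl, a log2 ratio of -2.50 (-2.63 to -2.38), and at -1.63 in the other hormone luminal cells. Slc5a5 had -1.71 in Aoc1 cells and -1.54 in the others. Ido1 had -0.48 and -0.94, and Pgr -0.53 and -0.51. Prlr had -0.26 in both classes. Tmem86a, Lcmt1 and Col6a3 had -1.52, -1.46 and -1.45 in Aoc1 cells and -1.22, -1.18 and -1.72 in the others, while Elf5 had -0.34 (-0.89 to 0.16) and -0.22, Mal 0.11 (-0.17 to 0.39) and -0.27, and Plb1 0.41 (-0.11 to 0.90) and -0.13. At a minimum of 10 Aoc1 UMIs Mal and Plb1 were -0.53 and -1.23 in Aoc1 cells.

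Defb1 had the lowest ratio of CL over Ctrl in Aoc1 cells, -5.95 (-7.40 to -4.83), against -1.72 in the others, and was -3.83 at a minimum of 3 Aoc1 UMIs. Hist1h1d, a linker histone, had -3.05 (-4.94 to -1.68) and -0.98, Thsd4, a matrix protein, -2.65 (-3.98 to -1.60) and -0.82, and Dscam, an adhesion molecule, -2.53 (-3.99 to -1.39) and -0.33. These rest on 4, 7 and 6 UMIs in the CL Aoc1 cells, and in the others all 3 genes were under the filter. Gatb, Faim2 and Phactr1 had -2.45, -2.40 and -2.30, from 16, 7 and 15 UMIs. Fgb had opposite signs in the classes, -0.59 (-0.79 to -0.39) in Aoc1 cells and 1.01 in the others. Csf3 had -1.36 (-2.09 to -0.72) and 1.09. At a minimum of 3 Aoc1 UMIs the values in Aoc1 cells were 0.18 (0.06 to 0.30) for Fgb and -0.11 (-0.49 to 0.26) for Csf3, so the sign turned for Fgb, while Csf3 kept its sign in all 11 settings with a value, at a smaller size here.

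The 8 highest ratios of CL over Ctrl were those of Mmp3, Col3a1, Col1a2, Ccl2, Lum, Tnfaip6, Ly6m and Serping1, at 6.60, 5.36, 5.05, 5.03, 4.95, 4.60, 4.54 and 4.34. All but Ly6m are known from fibroblasts, and for these 7 between 96.6% and 100% of the UMIs in CL Aoc1 cells lay in 1 cell. Ly6m, of the Ly6 surface protein family, had 55.9% in 1 cell and UMIs in 4. A gene spread over more cells was Gbp2, an interferon-induced GTPase, at 106 CPM in CL and 28.6 CPM in Ctrl (log2 1.89, and 1.51 in the other hormone luminal cells). All 10 tested interferon response genes were higher in CL Aoc1 cells than in those of Ctrl, 3 of them 2-fold, and in the other hormone luminal cells 8 of 10 were, 2 of them 2-fold. Over all genes tested 54.1% were higher in CL in Aoc1 cells and 1.05% 2-fold, and 41.5% and 0.246% in the others. The median was 0.55 in Aoc1 cells and 0.06 in the others, and without collagen-bearing cells 0.36 and 0.06, with Iigp1 in Aoc1 cells going from 0.63 to 0.036.

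**Figure D5:**
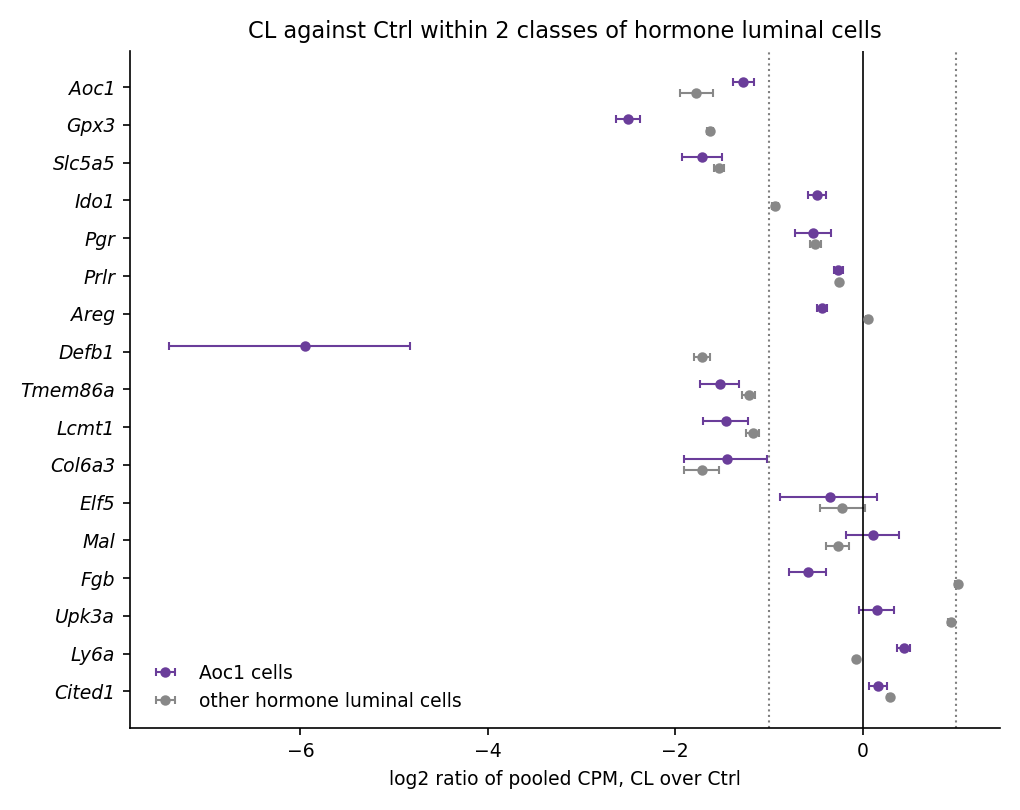
Log2 ratio of pooled CPM of CL over Ctrl (horizontal axis) for 17 named genes (vertical axis) in Aoc1 cells and in the other hormone luminal cells, with exact 95% counting intervals and dotted lines at 2-fold. Gpx3 lies at -2.50 and -1.63, Defb1 at -5.95 and -1.72, and Fgb at -0.59 and 1.01.

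Library checks that bear on these cells were as follows. The libraries held 118743318 UMIs in Ctrl and 155765480 in CL. Scrublet, a doublet caller, marked 2.41% of Aoc1 cells and 3.27% of the other hormone luminal cells in Ctrl, and 3.33% and 2.49% in CL at the threshold found in Ctrl. Of the candidate barcodes 22 were shared by both libraries, and 3 Aoc1 cells of Ctrl and 0 of CL were among them. The median share of mitochondrial UMIs was 4.20% in Aoc1 cells of Ctrl and 4.12% in those of CL.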

How the data were processed

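Single cells of dissociated mouse mammary gland were profiled by droplet sequencing (10x Genomics 3' v2 chemistry per the labels), with 1 library per group. The deposited values are raw UMI counts per gene and barcode, made by the authors with Cell Ranger and not normalized. The submitters' processing notes name Cell Ranger 2.1.1 and mm10, whereas the matrix header names version 4, and the annotation release is not given in the sources used here. The matrices hold every barcode (6794880 columns, 32285 genes). The deposited barcode lists hold 7217 barcodes for Ctrl and 10555 for CL and do not index the matrices, so the same number of barcodes with the most UMIs was taken from each library. Cells with at least 500 genes and at most 15% mitochondrial UMIs were kept.

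Counts were summed over the cells of a class and scaled to CPM. A gene was tested with at least 20 CPM in the higher class and 20 UMIs over both, and counted as higher or lower past 2-fold. Ratio intervals are exact conditional binomial intervals, shares have Clopper-Pearson and levels Poisson intervals, all at 95% and for counting error only. A gene at 0 was set to 3 counts. Genes were named by rank of the ratio (15 highest and 8 lowest in Ctrl, 8 and 8 for CL over Ctrl), from the 6 given markers, and up to 4 from each of 14 lists. Other genes named in the text (such as Gbp2, Socs3, Esr1 and Foxa1) are members of these lists chosen after their values were seen. The members and the lists were chosen with earlier results of these data known. Doublets were marked with Scrublet in scanpy 1.11.5 but kept. For CL its own threshold marked 0 cells, so the Ctrl threshold was used for both. In simulated data with 200 changed genes, 199 of 199 tested were recovered in Ctrl, 198 of 198 in CL and 199 of 199 for CL over Ctrl, and 0, 3 and 3 unchanged genes were called. Every changed gene was set well past the 2-fold limit, and pooled counts were drawn with counting error only. Near-complete recovery was thus set in advance. The simulation had no spread between cells, so it says nothing about genes whose UMIs lie mostly in 1 cell. Python 3.11, scipy 1.17.1, scikit-learn 1.9.0 and edgeR 4.0.16 (for alternative scaling factors) were used. At the start 36 alternatives were listed, and 9 were added after the data were seen.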

Additional observations from a re-analysis of the deposited data

Results flagged for a closer look

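For 3 fibrillar collagen genes the Aoc1 cells lay on opposite sides of the other hormone luminal cells in the libraries. The log2 ratio in CL was 4.75 for Col3a1, 4.36 for Col1a2 and 3.97 for Col1a1, against -3.06, -2.91 and -2.31 in Ctrl. The same genes had opposite signs when CL was set over Ctrl, at 5.36, 5.05 and 4.16 in the Aoc1 cells and -2.44, -2.22 and -2.12 in the other hormone luminal cells. Of the collagen UMIs in CL Aoc1 cells 99.1% lay in 1 cell, and its part in other results was measured only by leaving it out. Defb1 had a log2 ratio of -3.20 in CL and 1.04 in Ctrl. Csf3 had -1.36 for CL over Ctrl in the Aoc1 cells and 1.09 in the others, and -0.11 in the Aoc1 cells at a minimum of 3 Aoc1 UMIs. With 1 library per group none of these differences was tested.

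Cells with at least 5 Aoc1 UMIs also lay outside the hormone luminal class, 103 in Ctrl and 18 in CL. Of those in Ctrl, 68 were luminal cells between the hormone and secretory classes, 22 secretory luminal, 2 basal and 11 other cells. The 11 other cells held Ptprc UMIs together with luminal keratins. The median depth of the 103 cells was 31600 UMIs, and 56.3% were marked as doublets, against 5.72% of all Ctrl cells. In CL 11 lay between the classes, 4 were secretory luminal and 3 were other cells, again with Ptprc and luminal keratins. Of the 18 in CL 22.2% were marked. The part of doublets in these counts was not tested.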

How the results depend on the processing

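No paired analysis was possible because each group is 1 library. The share of Aoc1 cells among hormone luminal cells, as log2 CL over Ctrl, was -3.15 at a minimum of 3 Aoc1 UMIs (33.0% and 3.72%), -4.25 at 10 (20.3% and 1.06%) and -2.59 for thinned cells with at least 1 UMI. In Ctrl, a minimum of 100 CPM left 9 higher and 5 lower genes, 3-fold left 4 and 10, and a comparison with cells of 0 Aoc1 UMIs gave 38 higher. In CL, 100 CPM left 8 higher and 5 lower, 3-fold 28 and 8, a minimum of 10 Aoc1 UMIs gave 126 and 51, a minimum of 3 gave 14 lower, and leaving out collagen-bearing cells gave 30 higher. For CL over Ctrl, 100 CPM left 8 higher and 20 lower, 3-fold 30 and 24, and a minimum of 10 gave 144 higher. Among neighbours in Ctrl the share was 56.6% with 30 neighbours, 53.4% with 10 components and 58.7% with 4000 genes. The other 82 values of these summaries stayed within their limits.

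Of 3115 single-gene values 106 had the other sign, 88 of them for genes under 2-fold and 18 for genes past it, given next. In Ctrl, Gdf15 became -1.71 at a minimum of 10, -1.90 among cells low in Fgb and Upk3a and -1.12 without dividing cells, Top2a 0.18 without dividing cells, and Col1a1 0.085 without collagen-bearing cells. In CL, Cxcl2 was 0.040 at a minimum of 3. Without collagen-bearing cells, Col3a1, Col1a2, Col1a1, Ccl2 and Serping1 were -0.74, -0.55, -0.45, -1.14 and -1.06 in CL. For CL over Ctrl, Col3a1, Col1a2, Col1a1, Ccl2, Tnfaip6 and Serping1 were then -1.69, -2.07, -1.83, -1.52, -0.29 and -0.11. Ccl2 then had 0 UMIs in CL Aoc1 cells, and its values rest on the floor of 3 counts. Stmn1 for CL over Ctrl was -0.25 at a minimum of 10. Apart from the cells left out, the cause was not tested. The 60 cells of CL limit every ratio that uses them, and no interval covers differences between mice.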
